A study of Homo sapiens with 6 samples.

Results

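Cells detect viral-type RNA with dedicated sensors and answer with interferon, and 9 genes of this system were examined in RNA-Seq data from DU-145-DR prostate cancer cells with and without silencing of MUC1. The genes were chosen by symbol: the RIG-I-like sensors DDX58 (the older symbol of RIGI), IFIH1 and DHX58, the endosomal sensor TLR3, the adaptor MAVS, and the transcription factors IRF3, IRF7, IRF9 and STAT2. All 9 were found among the 28008 genes of the count table and the 25546 genes of the TPM table, and all 9 passed the filter on low counts. DU-145-DR is a derivative of the human prostate cancer line DU-145 made resistant to docetaxel (DTX) by continuous exposure, and the cells carried a hairpin against MUC1 under doxycycline (DOX) control (tet-MUC1shRNA). Of the 6 cultures sequenced, 3 received 0.1% DMSO as vehicle (DOX-negative) and 3 received DOX at 500 ng/ml (DOX-positive). The vehicle and dose are those of the study's general methods, and the line was selected with puromycin after transduction. The hairpin appears in the treatment labels of the DOX-positive libraries, while those of the others give DTX resistance, so that all 6 cultures were the same resistant, hairpin-carrying line rests on the titles and the study. The comparison measures MUC1 silencing by 1 hairpin together with exposure to DOX itself, which cannot be told apart here, since no library of DOX-treated cells with a control hairpin was analysed.

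As background, RIG-I (encoded by DDX58) and MDA5 (encoded by IFIH1) bind double-stranded RNA in the cytosol and signal through MAVS on mitochondria, whereas TLR3 reads double-stranded RNA inside endosomes and signals through TICAM1. Both routes activate kinases that phosphorylate IRF3 and IRF7, which switch on interferon genes. Secreted interferon then acts through JAK kinases on STAT proteins, of which STAT2 joins IRF9 in the complex ISGF3 that binds interferon-stimulated response elements (ISREs). Several members of the system are themselves interferon-stimulated genes.

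Library totals ranged from 15092691 to 23243713 counts. The detection floor was set at 3 counts, or 0.131 to 0.202 CPM (the count scaled to the library total after TMM adjustment) depending on the library. MUC1 had 387, 484 and 396 counts in DOX-negative replicates 1 to 3 and 75, 74 and 66 in the DOX-positive replicates, and its log2 fold change was -2.52 (SE 0.146, adjusted p 4.47e-11 by edgeR). The labelled line was checked by markers. The 5 leukocyte markers summed to at most 0.739 CPM in any library. The 5 epithelial markers were all higher with DOX, with a summed level between 757 and 837 CPM in DOX-negative and between 1443 and 1516 CPM in DOX-positive libraries, and their part in the results on the 9 genes was not tested.

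The promoters of the 4 genes that held a searched motif are shown here because ISREs and STAT sites (GAS) are the DNA elements through which interferon factors act. RefSeq windows (GRCh38.p14, 250 bases before to 50 after the annotated start) were matched for 6 of the 9 genes: DDX58 (listed as RIGI), IFIH1, TLR3, MAVS, IRF9 and STAT2. DHX58, IRF3 and IRF7 had no match. Windows were searched on both strands for the ISRE core GAAANNGAAA, the closer-spaced pair GAAANGAAA and the GAS core TTCNNNGAA, the last of which reads the same on both strands. Among 35116 windows of the same length, 3.57% held the first, 3.12% the second and 7.66% the third. Among the 15277 windows of tested genes, these shares were 2.85%, 2.36% and 6.26%. IFIH1 held 3 matches to the ISRE core, of which the pair between -159 and -144 overlap each other and the third lies between -21 and -12. TLR3 held 1 ISRE core match across its start, from -4 to 6, and 2 GAS core matches. DDX58 held 1 match to the closer-spaced pair, from -203 to -195, and IRF9 held 1 GAS core match, from -63 to -55. MAVS and STAT2 held none of the 3 motifs in this window, which says only that these letters do not occur there. Offsets count from the RefSeq start, which can differ from the GENCODE 29 gene start. The IRF9 stretch lies inside the GENCODE gene, which starts at 24161053. The ISRE core match of TLR3 begins at the GENCODE start of that gene, 186069152. The third match of IFIH1 spans the GENCODE start of IFIH1, 162318703. For 55.4% of 15277 windows of tested genes, the first transcribed bases lay within the first 60 of a GENCODE transcript of that symbol. In the stretches below, read on the strand of the gene, capitals mark the matches. That of DDX58 is chr9:32526327-32526426 (minus strand), that of IFIH1 is chr2:162318685-162318884 (minus strand), that of TLR3 is chr4:186068966-186069165 (plus strand) and that of IRF9 is chr14:24161191-24161220 (plus strand).
DDX58: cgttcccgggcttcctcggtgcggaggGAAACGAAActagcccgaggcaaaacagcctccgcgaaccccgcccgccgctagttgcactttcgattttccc
IFIH1: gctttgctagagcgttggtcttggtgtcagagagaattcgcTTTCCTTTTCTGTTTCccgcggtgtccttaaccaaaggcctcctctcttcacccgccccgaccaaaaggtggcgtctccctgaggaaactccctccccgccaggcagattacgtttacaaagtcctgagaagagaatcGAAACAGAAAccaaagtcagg
TLR3: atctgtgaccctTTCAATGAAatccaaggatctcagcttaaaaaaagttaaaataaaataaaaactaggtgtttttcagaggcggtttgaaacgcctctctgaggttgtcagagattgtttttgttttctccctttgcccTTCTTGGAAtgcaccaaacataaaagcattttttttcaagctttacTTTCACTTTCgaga
IRF9: gaccacgtgatTTCTGGGAAaaggccctcc

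Silencing of MUC1 was accompanied by a lower level of 1 of the 9 genes, IRF9, the DNA-binding subunit of ISGF3. With edgeR's quasi-likelihood test, and p-values adjusted by Benjamini-Hochberg over all 14292 genes tested, 1 of the 9 was lower and 0 were higher at an adjusted p under 0.05, where 13.7% of all genes were called lower and 13.0% higher. The other 8 genes did not pass the threshold. An unadjusted p under 0.05 was found for 3 of the 9 (IRF9, MAVS and IRF3, all with negative log2 fold changes), where 37.9% of all genes had one, and DESeq2 also called IRF9 lower and 0 of the 9 higher. For 3 of the 9 genes (IRF9, MAVS and IRF3) the CPM ranges of the groups were separate, which held for 39.8% of all genes tested. The log2 fold changes of the 9 ran from -0.62 to 0.36 with a median of -0.18, against a median of -0.0034 over all genes. The counts called thus lie near what the whole table gives. Nothing in the labels ties the cultures to separate passages, so p-values measure the spread between these libraries, which may be technical.

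**Figure D1:**
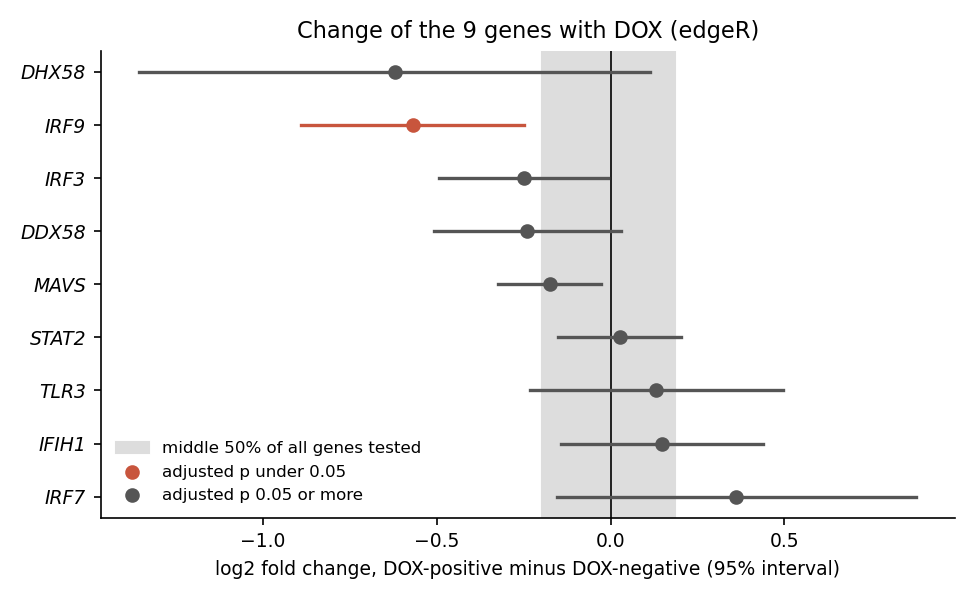
Log2 fold change from DOX-negative to DOX-positive cells (x axis) for each of the 9 genes (y axis), with 95% intervals from the edgeR fit on 3 libraries per group; the grey band holds the middle 50% of all 14292 genes tested and red marks an adjusted p under 0.05. IRF9 at -0.57 is the 1 gene past the threshold, and the interval of DHX58 is the widest.

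Among the sensors, none was called. DDX58 (chr9:32455705-32526324, minus strand; GRCh38 in the GENCODE 29 annotation, as are the gene positions that follow) encodes RIG-I, which recognises 5′-triphosphate RNA ends. It stood at 17.7, 18.7 and 14.9 CPM in DOX-negative replicates 1 to 3 and at 12.8, 17.3 and 13.2 CPM in DOX-positive replicates 1 to 3. DOX-positive replicate 2 lay within the DOX-negative range, so the groups overlapped. DDX58 thus had a log2 fold change of -0.24 (SE 0.130, 95% interval -0.51 to 0.029, adjusted p 0.181 by edgeR). Without DOX-positive replicate 2 it was -0.39 and past the threshold (edgeR adjusted p 0.0249), so this library decides the call, and without DOX-positive replicate 1 it was -0.15.

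IFIH1 (chr2:162267079-162318703, minus strand), which encodes the long-RNA sensor MDA5, stood at 9.68, 8.53 and 9.10 CPM without DOX and 11.4, 8.77 and 10.0 CPM with DOX. These groups overlapped, with the highest value in DOX-positive replicate 1. For IFIH1 the log2 fold change was 0.15 (SE 0.140, adjusted p 0.480 by edgeR) with a 95% interval from -0.14 to 0.44. Leaving out DOX-positive replicate 1 gave 0.042 and leaving out DOX-positive replicate 2 gave 0.24.

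DHX58 (chr17:42101404-42112733, minus strand) encodes LGP2, a relative of the other two RIG-I-like sensors that lacks their signalling domains and tunes them. It was the gene with the fewest counts, at 54, 41 and 22 in the DOX-negative and 29, 33 and 14 in the DOX-positive libraries. Scaled to CPM, these were 2.97, 2.10 and 1.09 against 1.26, 1.72 and 0.941, so DOX-negative replicate 3 lay among the DOX-positive libraries. Its log2 fold change of -0.62 was the lowest of the 9 but had an SE of 0.354 (95% interval -1.36 to 0.11, edgeR adjusted p 0.207), and a change of this size was not detectable at this depth and spread. Leaving out single libraries moved the value from -0.93, without DOX-negative replicate 3, to -0.27, without DOX-negative replicate 1.

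TLR3 (chr4:186069152-186088069, plus strand), the endosomal sensor, stood at 6.49, 5.06 and 4.92 CPM without DOX and 5.44, 5.95 and 6.72 CPM with DOX. The groups overlapped, with the highest value in DOX-positive replicate 3 and the lowest in DOX-negative replicate 3. The log2 fold change was 0.13 (SE 0.175, 95% interval -0.23 to 0.49, adjusted p 0.628 by edgeR). Of the 6 values with 1 library left out, that without DOX-positive replicate 2 moved by less than 1.5 times, and the others were 0.27, 0.078 and 0.059 without DOX-negative replicates 1, 2 and 3 and 0.21 and 0.055 without DOX-positive replicates 1 and 3.

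MAVS (chr20:3846799-3876123, plus strand), the mitochondrial adaptor on which RIG-I and MDA5 converge, stood at 107, 103 and 91.7 CPM without DOX and 88.7, 89.3 and 88.8 CPM with DOX. Every DOX-positive library was below every DOX-negative library, by a narrow margin against DOX-negative replicate 3. The log2 fold change was -0.18 (SE 0.0716, 95% interval -0.32 to -0.027), and the edgeR adjusted p of 0.0745 missed the threshold. It passed with total counts in place of TMM factors (edgeR adjusted p 0.0360) and without DOX-negative replicate 3 (0.0258), and it did not in the other 14 of 16 alternatives.

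**Figure D2:**
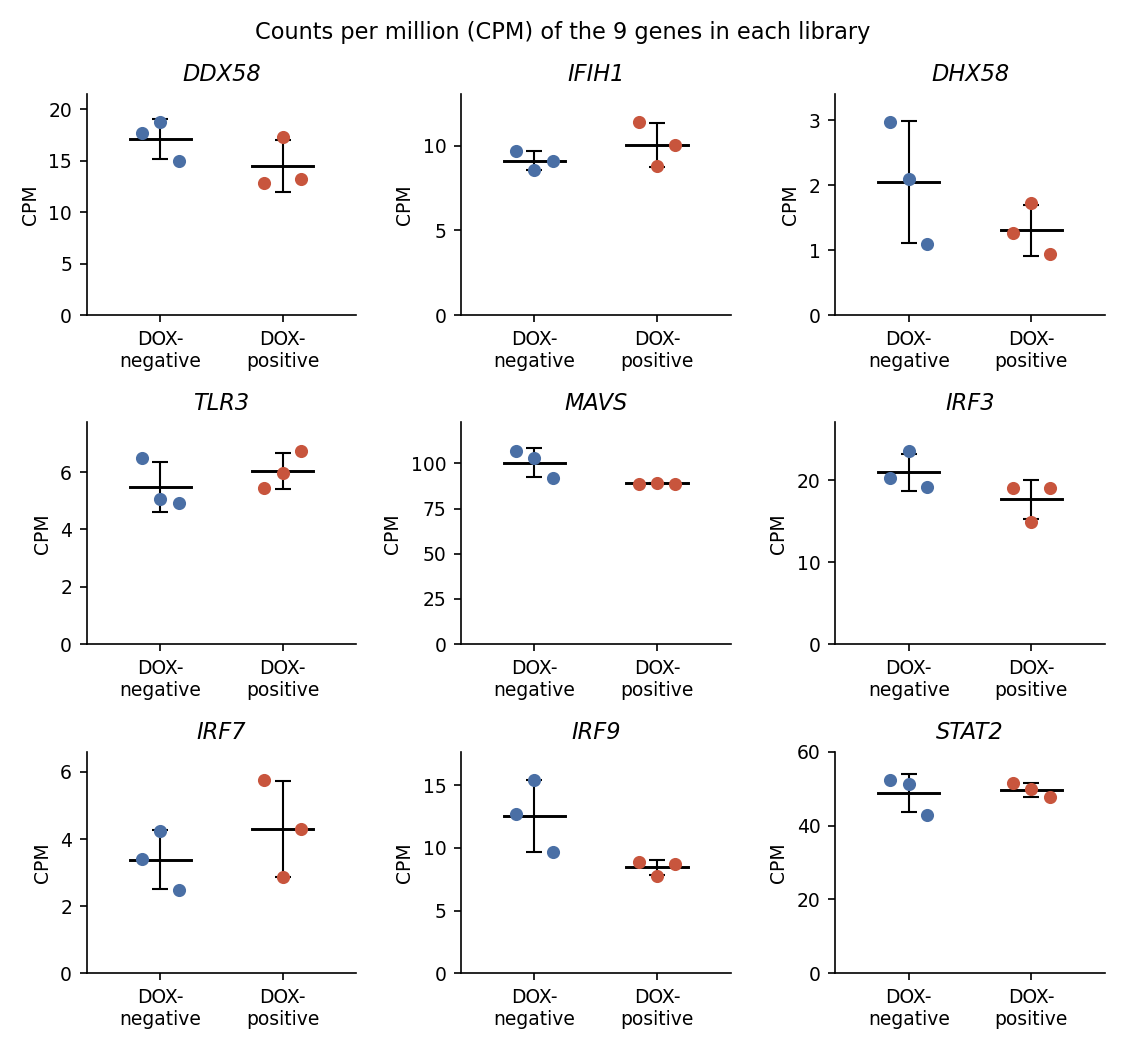
CPM of each of the 9 genes (1 panel per gene, y axis from 0) in the 3 DOX-negative (blue) and 3 DOX-positive (red) libraries, drawn as points from left to right in the order of the replicate numbers, with the mean (line) and SD (bar). The 3 DOX-positive points of IRF9 lie between 7.78 and 8.88 CPM, below the 3 DOX-negative points.

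Among the transcription factors, IRF9 was lower with silencing, and STAT2, IRF3 and IRF7 did not pass the threshold. IRF9 (chr14:24161053-24166565, plus strand) stood at 12.7, 15.4 and 9.65 CPM in DOX-negative replicates 1 to 3 and at 8.88, 7.78 and 8.73 CPM in DOX-positive replicates 1 to 3. All 3 DOX-positive libraries were below all 3 DOX-negative libraries, and the DOX-negative libraries were spread more widely, with replicate 2 highest. Its mean fell with DOX, from 12.6 ± 2.87 CPM to 8.47 ± 0.600 CPM (SD, n = 3 in both groups). The log2 fold change was -0.57 (SE 0.155, adjusted p 0.00862 by edgeR), which is a fold of 0.674 with a 95% interval from 0.539 to 0.842. The call rests on DOX-negative replicate 2, without which the value was -0.40 and the edgeR adjusted p 0.0798. That library also had the lowest share of TPM in 5 short noncoding RNAs, at 34.4% against 51.2% to 64.4% in the other 5 libraries. With TPM rescaled without these RNAs, IRF9 was at -0.54 (limma adjusted p 0.0308). The part of this difference in the result from counts was not tested. In GENCODE 29 the readthrough gene AL136295.5 shares 1838 exon bases with IRF9 on the same strand, so reads of the 2 cannot be fully told apart.

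STAT2 (chr12:56341597-56360155, minus strand), which brings the activation domain to ISGF3, stood at 52.3, 51.3 and 43.0 CPM without DOX and 51.5, 49.8 and 47.6 CPM with DOX. The DOX-positive values lay inside the DOX-negative range. Its log2 fold change was 0.026 (SE 0.0857, adjusted p 0.864 by edgeR), with a 95% interval from -0.15 to 0.20, and its sign was negative with total counts, with log2(TPM + 1) and log2(TPM + 0.1), and without DOX-negative replicate 3 (-0.059) or DOX-positive replicate 1 (-0.0014).

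IRF3 (chr19:49659569-49665875, minus strand), the factor that is present before stimulation and activated by phosphorylation, stood at 20.3, 23.5 and 19.1 CPM without DOX and 19.03, 14.9 and 19.01 CPM with DOX. The groups did not overlap, but DOX-negative replicate 3 and DOX-positive replicates 1 and 3 were almost level. IRF3 had an estimate of -0.25 on the log2 scale (SE 0.117, 95% interval -0.49 to -0.0063, adjusted p 0.122 by edgeR). Leaving out DOX-negative replicate 2 gave -0.16, and leaving out DOX-positive replicate 2 gave -0.14. BCL2L12 shares 734 exon bases with IRF3 on the opposite strand and had a log2 fold change of -0.18 (edgeR adjusted p 0.372). Whether reads were counted by strand is not given in the sources used here, so reads of this overlap are uncertain.

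IRF7 (chr11:612553-615999, minus strand), which amplifies interferon production in many cells, stood at 3.41, 4.24 and 2.49 CPM without DOX and 5.75, 2.87 and 4.30 CPM with DOX. The spread within each group was wide, and DOX-positive replicate 2 lay inside the DOX-negative range. IRF7 had an estimate of 0.36 on the log2 scale (SE 0.249, 95% interval -0.15 to 0.88, adjusted p 0.306 by edgeR). It was 0.56 and 0.18 without DOX-negative replicates 2 and 3, and 0.072 and 0.59 without DOX-positive replicates 1 and 2, so its size rests on single libraries.

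The levels of the 9 genes were ordered by deposited TPM, which is scaled by transcript length. In DOX-negative cells the means were 16.2 for IRF3, 15.2 for STAT2, 12.3 for IRF9, 11.5 for MAVS, 5.11 for DDX58, 3.56 for IFIH1, 2.60 for TLR3, 1.20 for DHX58 and 1.16 for IRF7. The IRF3, STAT2, IRF9 and MAVS transcripts thus stood above those of each sensor, in all 6 libraries. Some neighbours in this order of DOX-negative means changed places between libraries. IRF3 was above STAT2 in 2 of 3 DOX-negative and 0 of 3 DOX-positive libraries. IRF9 was above MAVS only in DOX-negative replicate 2, or 1 of 6. DDX58 was above IFIH1 in 3 of 3 DOX-negative and 1 of 3 DOX-positive libraries. DHX58 was above IRF7 in 1 of 3 libraries of each group. STAT2 above IRF9, MAVS above DDX58, IFIH1 above TLR3 and TLR3 above DHX58 held in 6 of 6. In DOX-positive cells STAT2 was above IRF3 and MAVS above IRF9 in all 3 libraries. The TPM of a gene between libraries also moves with the 5 short noncoding RNAs. This affects the means, which set the order above, but not the order within a library.

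**Figure D3:**
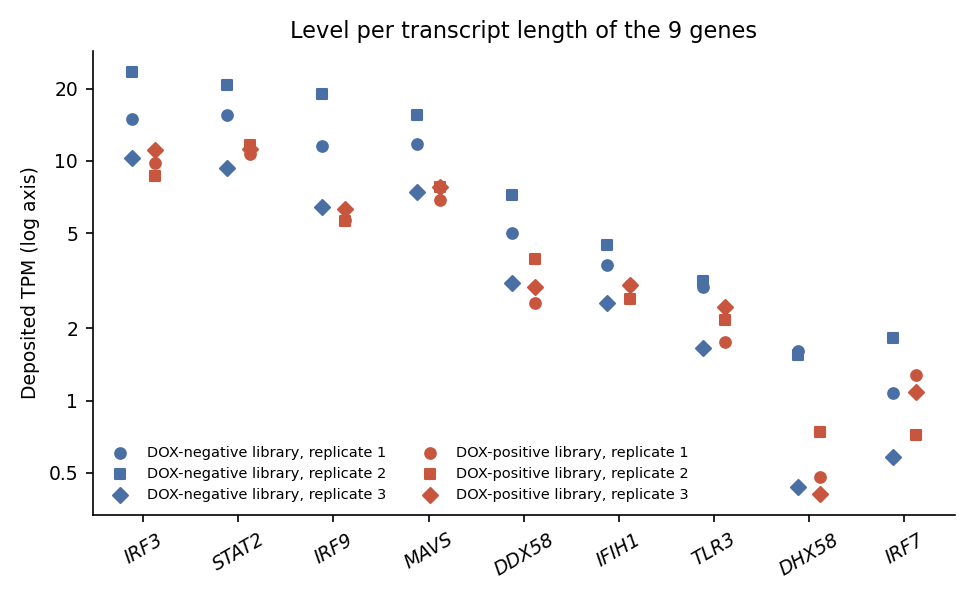
Deposited TPM of the 9 genes (y axis, log scale) in each DOX-negative (blue) and DOX-positive (red) library, with the marker shape giving the replicate number. The 4 genes on the left, IRF3, STAT2, IRF9 and MAVS, lie above the 5 on the right in each library, and DHX58 and IRF7 are lowest.

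Ratios of counts within a library do not depend on how libraries are scaled, and pairs of partners were compared in this way. The log2 ratio of IRF9 to STAT2, both parts of ISGF3, was -2.04, -1.74 and -2.15 in DOX-negative and -2.53, -2.68 and -2.45 in DOX-positive replicates 1 to 3. IRF9 was lower against STAT2 in every DOX-positive library, by 0.58 on average. The log2 ratio of IRF7 to IRF3 was -2.57, -2.47 and -2.94 without DOX and -1.73, -2.38 and -2.14 with DOX, a difference of 0.58 without overlap. For each of these pairs the two-sided exact permutation test gave p = 0.1, the smallest that 3 against 3 libraries allow, or 0.133 after Benjamini-Hochberg adjustment over the 4 pairs computed. The ratio of IFIH1 to DDX58 differed by 0.38 with overlapping groups (exact permutation p = 0.3, adjusted 0.3).

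The other genes of the pathway were taken from 7 lists of 110 genes, of which 82 passed the filter, 24 were called lower and 11 higher. Over all genes tested, 13.7% were called lower and 13.0% higher, and the counts of each list below are to be read beside these shares. The lists were chosen with earlier results of these data known. Among 16 sensor cofactors, adaptors and kinases, 3 were lower and 2 higher, and their median log2 fold change was -0.026. DDX60, a helicase described as a RIG-I cofactor, fell with DOX, from 6.09 ± 0.717 CPM to 1.28 ± 0.206 CPM (SD, n = 3 in both groups). The log2 fold change was -2.24 (SE 0.228, adjusted p 1.84e-07 by edgeR). The other 4 called, named after their values were seen, were TRAF2 (-0.36) and TOMM70 (-0.32), which were lower, and ZC3HAV1 (0.22) and AZI2 (0.27), which were higher. TBK1, the kinase that phosphorylates IRF3, had a log2 change of -0.17 (SE 0.0736, adjusted p 0.0871 by edgeR).

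Of 18 other nucleic acid sensors, 12 were tested, 2 were lower and 0 higher, with a median of -0.11. OASL fell by 1.11 in log2 (SE 0.196, adjusted p 0.000222 by edgeR). OAS3, named after its value was seen, fell by 0.43. The interferon genes themselves were close to silent, since 8 of the 10 listed, IFNB1 and IFNL1 among them, had 0 counts in all 6 libraries, a count that allows a level of up to 0.202 CPM where the depth was lowest. IFNE was the 1 that was tested, with between 6 and 16 counts per library and a log2 fold change of 0.78 (SE 0.463, adjusted p 0.225 by edgeR).

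Of 11 receptors, JAKs and other STATs, 4 were lower and 2 higher, with a median of -0.17. IFNGR1, a chain of the interferon-γ receptor, fell by 0.87 (SE 0.0885, adjusted p 1.90e-07 by edgeR). IFNLR1, a chain of the interferon-λ receptor, fell by 0.52 (SE 0.158, adjusted p 0.0177 by edgeR). IFNAR2, the type I receptor chain that binds STAT2, fell by 0.48 (edgeR adjusted p 4.72e-05) and was named after its value was seen. Of the kinases of the type I receptor, JAK1 was higher by 0.43 (SE 0.0599, adjusted p 1.44e-05 by edgeR) and TYK2 was at -0.0057 (SE 0.0880, adjusted p 0.970 by edgeR).

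Among 6 other IRF factors, 5 were tested, 2 were lower and 1 higher, with a median of -0.26. IRF2, which can act as a repressor at ISREs, fell by 0.50 (SE 0.120, adjusted p 0.00345 by edgeR). IRF8 had 10, 21 and 13 counts without DOX and 4, 2 and 6 with DOX, a log2 fold change of -1.80 (SE 0.561, adjusted p 0.0202 by edgeR) that rests on few reads. IRF1 was at -0.051 (SE 0.124, adjusted p 0.810 by edgeR).

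Of 17 negative regulators, 16 were tested, 2 were lower and 5 higher, with a median of 0.10. TNFAIP3, a deubiquitinase that dampens inflammatory signalling, rose by 0.83 (SE 0.0754, adjusted p 3.62e-08 by edgeR). RNF125, a ligase that marks RIG-I and MDA5 for degradation, rose by 0.79 (SE 0.115, adjusted p 2.34e-05 by edgeR). CYLD, a deubiquitinase that also acts on RIG-I, rose by 0.59 (SE 0.0738, adjusted p 3.14e-06 by edgeR). USP18, which blocks the type I receptor, had a log2 change of 0.15 (SE 0.104, adjusted p 0.316 by edgeR).

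Of 32 interferon-stimulated effectors, which ISGF3 and IRF3 can induce, 21 were tested, 11 were lower and 1 higher, with a median of -0.29. The 8 largest called changes were all falls and were in IFI44 (-3.24), IFI6 (-1.22), IFIT1 (-1.07), SAMD9 (-0.68), IFIT2 (-0.67), ISG15 (-0.57), MX1 (-0.54) and HERC5 (-0.51). Their edgeR adjusted p ran from 9.15e-07 to 0.0141. Of these 8, the groups overlapped for IFIT2. Of the 21 tested, 9 were not called. The log2 fold change of IRF9, at -0.57, lay among the smaller of the 8 falls, and a link between them was not tested.

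**Figure D4:**
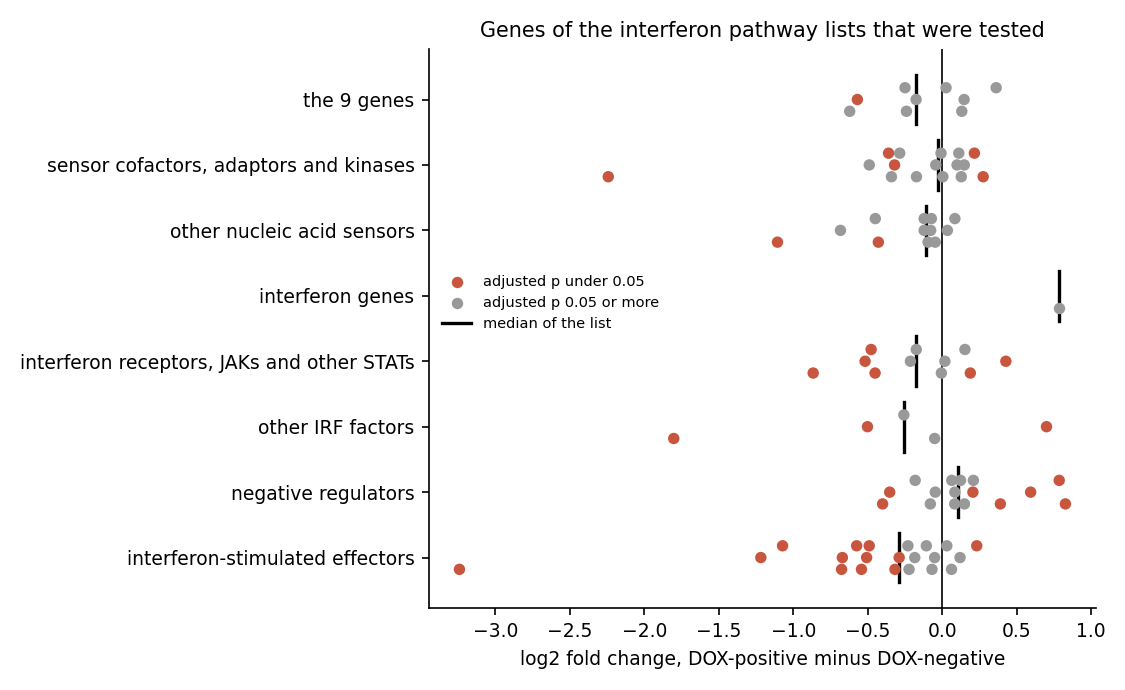
Log2 fold change from DOX-negative to DOX-positive cells (x axis) of each tested gene in the 9 genes and the 7 pathway lists (y axis), with called genes in red, others in grey and the median of each list as a black line; points are offset vertically for legibility. The effector list lies mostly left of 0, with 11 of 21 called lower. Of the 9 sensors and factors 1 is called lower, and of all genes tested 13.7% are.

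The heptamer ATCAGTA was examined because earlier results on these data found genes that hold it in the 3′UTR to be lower with DOX. In the longest principal 3′UTR of each gene (GENCODE 29, at least 50 bases), it occurred in 10.0% of 12085 tested genes, of which 32.6% were called lower, against 13.2% of genes without it. None of the 9 genes holds it in the 3′UTR, IRF9 included, and IFIH1 holds 1 copy before the 3′UTR. Of the other pathway genes, DDX60, TOMM70, IFNLR1 and SAMD9 hold it in the 3′UTR and were called lower. TRIM25, CGAS, IFNAR1, PIAS1, IRF2BP2 and IFIT5 of the lists hold it there too and were not called. The shares of genes called lower come from the same data as the earlier results, so they are no separate evidence. The length of the 3′UTR was not taken into account. No test rests on this match.

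The genes whose pattern was most like that of IRF9 were taken as those with the highest Pearson's r of log2 CPM over the 6 libraries, among 9947 other genes with an average log2 CPM of at least 3. They were PLCB3 (r = 0.993), ZSCAN30 (0.991), TRIM32 (0.986) and CDC25C (0.986). With so many genes and 6 libraries in 2 groups, high values arise easily, and these are given as a description only. Their deviations from the group means followed those of IRF9 (r between 0.960 and 0.995), in which DOX-negative replicate 2 was highest. That largely follows from how these genes were picked and adds no separate evidence.

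The direction of change of each gene was followed across 16 processing alternatives. IRF9, DDX58, DHX58, MAVS and IRF3 were lower in all 16. IFIH1, TLR3 and IRF7 were higher in all settings except log2(TPM + 1) and log2(TPM + 0.1), and STAT2 changed sign in 5. The deposited TPM moved the median of all genes by -0.32 with a pseudocount of 1 and by -0.38 with 0.1, and only 6.77% and 7.11% of its calls were higher, against 48.8% from counts. Relative to that shift, IFIH1, TLR3 and IRF7 were at 0.12, 0.13 and 0.26 with a pseudocount of 1. With TPM rescaled without the 5 short noncoding RNAs the shift was -0.022, and IFIH1, TLR3 and IRF7 were at 0.099, 0.099 and 0.21.

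**Figure D5:**
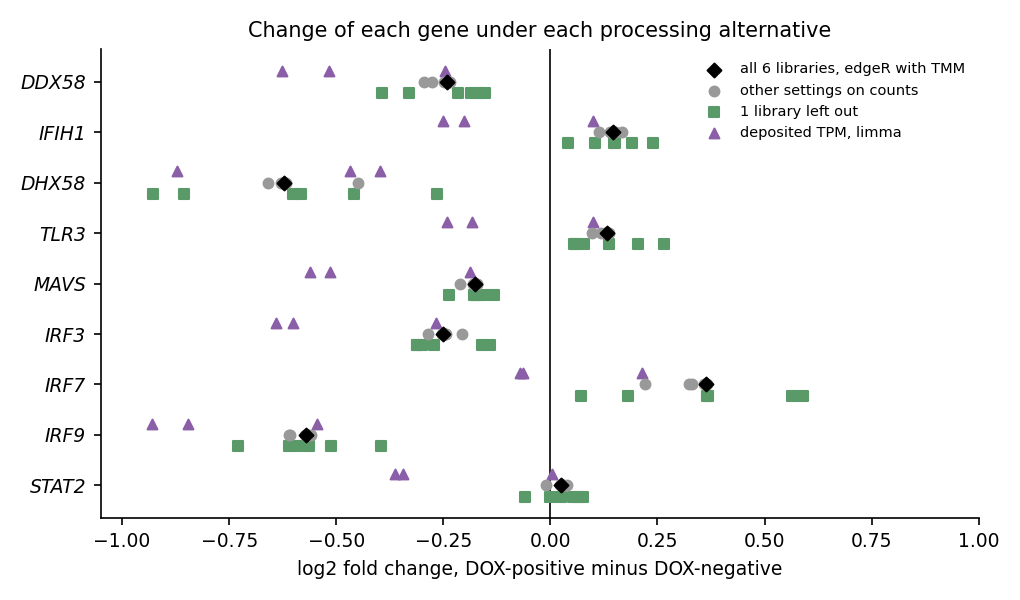
Log2 fold change from DOX-negative to DOX-positive cells (x axis) of each of the 9 genes (y axis) from all 6 libraries (black diamonds), under other settings on counts (grey circles), with 1 library left out (green squares) and from the deposited TPM with limma (purple triangles). IRF9 stays below 0 throughout, from -0.93 to -0.40, and STAT2 lies on both sides of 0.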

How the data were processed

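Poly(A)-selected stranded libraries (TruSeq Stranded mRNA) were made by the authors from triplicate cultures. The authors deposited whole-number read counts per gene and TPM values. The submitters' processing notes name STAR, DESeq2 and GRCh38 (hg38); the counting step, its strand setting and the annotation are not given in the sources used here. Groups and replicate numbers came from titles, and columns were matched by DOX state and number although they abbreviate the line differently.

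The deposited counts were fitted with edgeR 4.0.16 under R 4.3.3 (filterByExpr, TMM, glmQLFit and glmQLFTest, two-sided, group as the only term), with Benjamini-Hochberg adjustment over all genes tested and a threshold of 0.05. The SE of a log2 fold change is its size over the root of the F statistic. CPM uses TMM-scaled totals. Only counting error enters the floor of 3 counts. Replicates were not copies of one another, since pairs of libraries exceeded counting noise (chi-square per degree of freedom between 3.73 and 20.0). As alternatives, the low-count filter was dropped or set to a minimum of 10 counts per library, TMM was exchanged for total counts or RLE factors, the test for DESeq2 1.42.0, and the libraries were thinned to the smallest total. A replicate block was also fitted. Further settings were limma 3.58.1 on log2(TPM + 1) and log2(TPM + 0.1), TPM rescaled without RN7SL1, RN7SL2, RN7SL3, RN7SK and RPPH1, a threshold of 0.01, and each library left out. Because of the pseudocount, fold changes from TPM (log2 of TPM plus pseudocount) come out too small for weakly expressed genes.

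The members, lists and tests were chosen with earlier results of these data known. STING1 was matched by its older symbol TMEM173. Named genes were MUC1, the members, IRF1, USP18, TBK1, JAK1 and TYK2, list genes with an adjusted p under 0.05 and a log2 fold change of 0.5 or more in size (up to 4 per list, 8 for effectors), and the 4 genes most correlated with the member of lowest adjusted p. Lists are described by counts and medians without a set test. Some genes that this rule names, and 1 of the 4 ratio pairs, are not reported here.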

Additional observations from a re-analysis of the deposited data

How the results depend on the processing

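The fall of MUC1 stayed past the threshold in all 16 alternatives, from -2.85 to -2.36. The number of members called lower was 1 from all libraries, 0 from log2(TPM + 1) and log2(TPM + 0.1), where IRF9 had limma adjusted p of 0.113 and 0.0941, 2 with total counts, and from 0 to 2 when single libraries were left out (0 without DOX-negative replicate 2, 2 without DOX-negative replicate 3 or DOX-positive replicate 2). TPM rescaled without the 5 short noncoding RNAs gave 1 member lower, IRF9, at -0.54 (limma adjusted p 0.0308). No member was called higher in any of these settings. The 35 calls in the pathway lists became 7 from log2(TPM + 1) and 8 from log2(TPM + 0.1), and from 29 to 32 when a library was left out. The whole table gave 3816 calls, against 443 and 408 from the 2 TPM settings. The log2(TPM + 1) and log2(TPM + 0.1) settings reversed IFIH1 (-0.20 and -0.25), IRF7 (-0.063 and -0.070), TLR3 (-0.18 and -0.24) and STAT2 (-0.34 and -0.36). With TPM rescaled without the 5 short noncoding RNAs, IFIH1, IRF7, TLR3 and STAT2 were at 0.099, 0.21, 0.099 and 0.0030. Total counts also reversed STAT2 (-0.010), which ran from -0.059 to 0.076 when a library was left out. The cause of these reversals was not tested. Set against the order of the DOX-negative means, the 9 members kept 5 places in DOX-negative replicate 1 alone, 7 in DOX-negative replicate 2 alone, 5 in DOX-negative replicate 3 alone, 1 in DOX-positive replicate 1 alone, 5 in DOX-positive replicate 2 alone and 1 in DOX-positive replicate 3 alone. The replicate block gave IRF9 -0.56 (edgeR adjusted p 0.0152), called 1 member lower and 3158 genes in all, and changed no call of a member. Same-numbered deviations correlated at -0.14, -0.19 and -0.052, and 0 of 6 libraries correlated best with their own number. No pairing was thus seen, but with 3 libraries per group this check cannot exclude one. Depth limits genes with few counts, such as DHX58, and 3 libraries per group limit each call.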
